A study of Mus musculus with 30 samples.

Results

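The nuclear genes for the subunits of the mitochondrial oxidative phosphorylation system were followed across cells sorted from the mouse stomach. They were taken by symbol: names beginning with Nduf and one of the letters a, b, c, s or v, names beginning with Uqcr, Cox4 to Cox8 or Atp5, the 4 genes Sdha to Sdhd, and Cycs. This rule found 98 of the 25942 named genes. Of the 98, 81 encode subunits: 36 of complex I, 4 of complex II, 8 of complex III, cytochrome c, 17 of complex IV and 15 of ATP synthase. The other 17 are 8 complex I assembly factors (the Ndufaf genes), 8 annotated pseudogenes and Atp5s, a relative of an ATP synthase coupling factor. Ndufa4 and its paralogue Ndufa4l2 are counted here with complex IV, where the Ndufa4 protein is found, and not with complex I, for which they were named. The 13 mitochondrially encoded subunits and Cox6a2, Cox8b and Cox8c were not analysed here.

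RNA was sequenced from 30 libraries, 10 groups of 3, each library from cells sorted by flow cytometry. The Lgr5-DTR-GFP mice report Lgr5, a Wnt target and stem cell marker, by a green fluorescent protein joined to a diphtheria toxin receptor. Their antrum (the distal stomach, also called pylorus) was sorted into cells positive and cells negative for Lgr5. Their corpus (the acid-secreting body) was sorted into Lgr5-negative cells and, among Lgr5-positive cells, those high and those low in EpCAM, an epithelial adhesion molecule. The Sox2-Tomato mice report the transcription factor Sox2 by a red fluorescent protein, and were sorted into 3 antrum fractions (Sox2-high, Sox2-low, Sox2-negative) and 2 corpus fractions (Sox2-positive, Sox2-negative). The corpus Sox2-positive sort is named Sox2 low in the deposited sort sheet. All mice are labelled WT in genotype apart from the reporter, no group is labelled as treated, and age is not given in the sources used here. The 3 libraries of a group come from 3 sort days. Sort days are numbered separately in each line and tissue, so the same number stands for different dates in different lines and tissues. How many animals went into a sort is not stated, and the spread behind every p-value below is that between sorts, which may be technical. The corpus groups of the Lgr5 line are called EpCAM-high, EpCAM-low and Lgr5-negative from here on.

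Oxidative phosphorylation turns the energy of food electrons into ATP. Complex I takes electrons from NADH and complex II from succinate, complex III passes them to cytochrome c, complex IV hands them to oxygen, and ATP synthase uses the proton gradient that complexes I, III and IV build. Several subunits exist in paralogous forms made in different tissues. In the stomach, the acid-secreting parietal cell is known for its dense packing of mitochondria, which supply the ATP for the proton pump.

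Values are normalized counts (reads divided by a size factor per library) within a tissue, since the antrum and corpus tables were scaled separately. Libraries held 18672634 to 62344916 reads. Tissue labels were checked with parietal markers. Atp4a, the catalytic subunit of the proton pump, ran from 221 to 48747 in the antrum libraries, highest in antrum Lgr5-positive cells, and from 28383 upward in the corpus libraries. The summed parietal markers reached 290159 in the antrum against at least 244052 in the corpus, so the ranges met at their ends.

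Subunit transcripts were abundant in every group, and the leading genes were nearly the same in both tissues. Per kilobase of exon, the leading subunits in the corpus were the complex IV genes Cox6a1 at 43708, Cox8a at 28460 and Cox6b1 at 27764 normalized counts, followed by the ATP synthase beta subunit Atp5b at 23725 and Cox4i1 at 21514. In the antrum, Cox8a at 28035 and Cox6a1 at 27992 led, followed by Cox6b1 at 20797, the complex III subunit Uqcr10 at 19984 and Atp5b at 15239. The lowest in both were paralogous or tissue-restricted forms: Ndufa4l2, Cox4i2, Cox7b2 and Cox6b2, followed by Atp5l. The median per kilobase in the corpus was 4094 for complex I, 5275 for complex II, 6185 for complex III, 1054 for cytochrome c, 5145 for complex IV and 5657 for ATP synthase. In the antrum these medians were 3043, 3609, 5772, 663, 3909 and 4135 in the same order. Exon lengths include untranslated parts from all annotated transcripts, so a gene's level per kilobase is approximate.

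**Figure D1:**
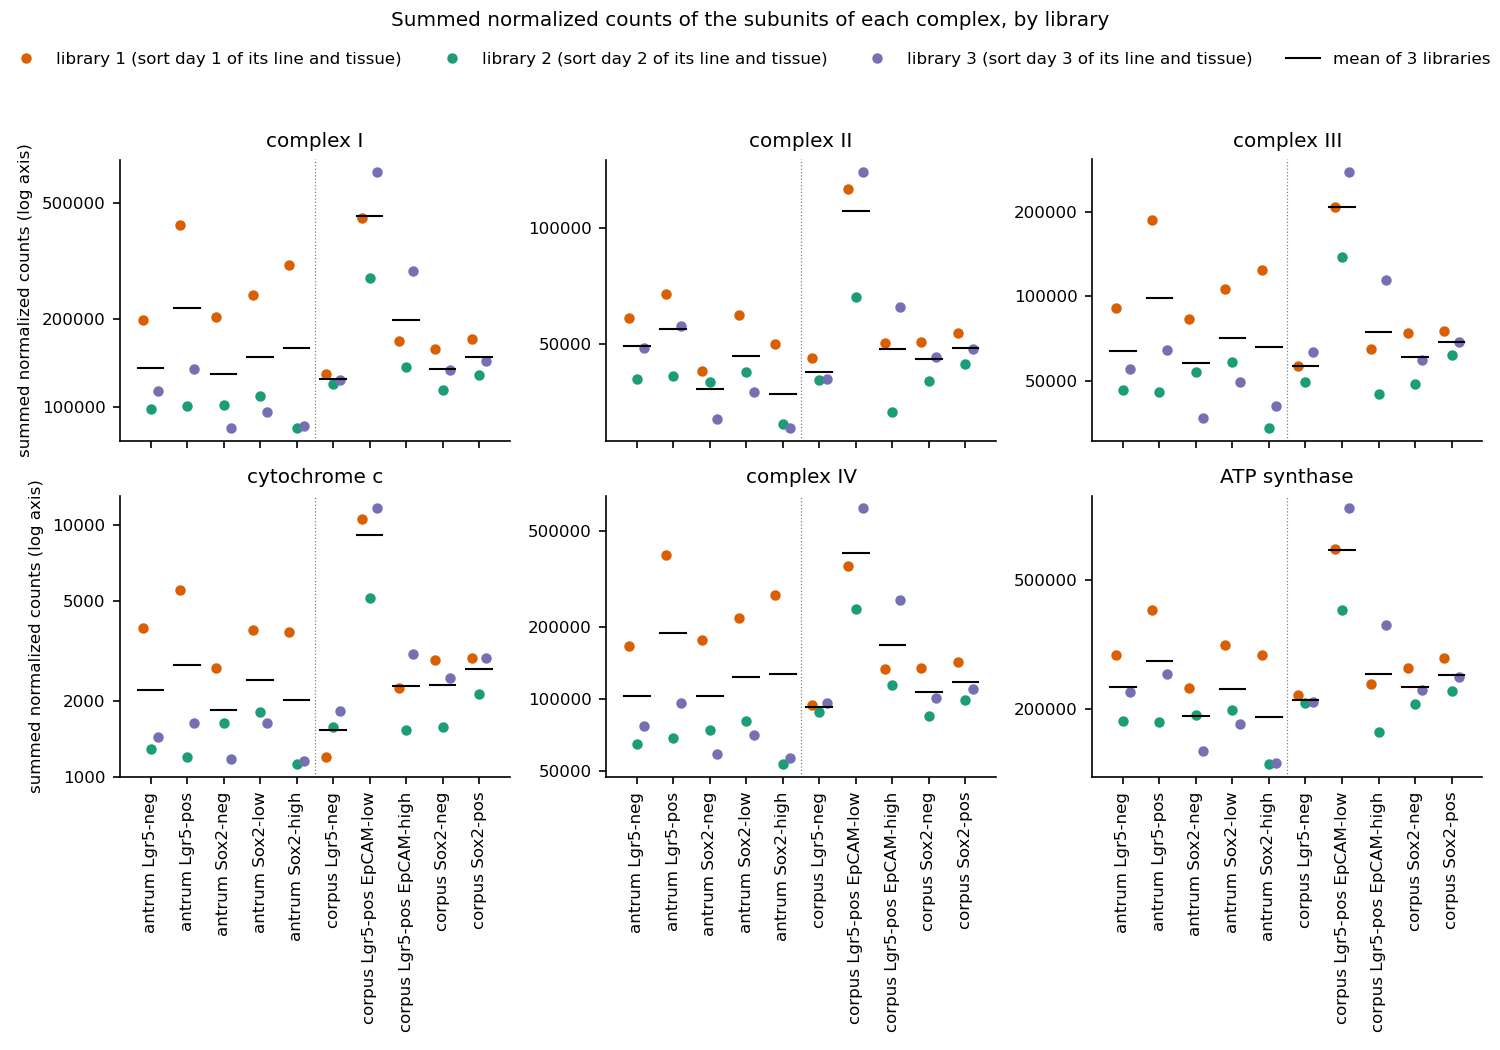
Summed normalized counts of the subunits of each respiratory complex (log scale) in the 10 sorted groups; each point is a library, coloured by sort day of its line and tissue, and the line is the mean of 3. The 3 EpCAM-low libraries stand above the Lgr5-negative ones for complex I (277429 to 635493 against 119878 to 129994). EpCAM-high replicate 3, at 292275, lies within the EpCAM-low range. In the antrum the sort day 1 points stand above the others for complex IV.

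The promoters of the members are described here by their letters, and were not tested against the RNA levels. RefSeq promoter entries (GRCm38.p6, 250 bases before to 50 after the annotated start) were found for 74 of the 98 members, of which 67 are subunits. They were searched on both strands for 4 motifs of factors known from nuclear genes of mitochondrial proteins: the NRF1 motif, whose near-palindromic letters with 1 free base appear in capitals in the sequences below, CCGGAAG for ETS factors, AAGGTCA for the estrogen-related receptors and AAGATGG for YY1. The NRF1 letters were found in 16 of the 67 subunit promoters (23.9%) and in 4.60% of all 32851 promoters. Each subunit gave 1 promoter, while all promoters were counted without reduction to 1 per gene, so the shares are only roughly comparable. The ETS letters were found in 15 (22.4%, all promoters 8.86%), those of the estrogen-related receptors in 8 (11.9%, all 4.72%) and those of YY1 in 9 (13.4%, all 6.34%). A match is a description of letters and not a bound site. Below are the promoters of the paralogues Cox7a1 and Cox7a2, whose balance differed between sorted groups, and of Cox6a1 and Sdha, which hold NRF1 letters and behaved differently across sort days. Matches are in capitals; Cox6a1 holds 2 NRF1 and 1 ETS match, Sdha 3 NRF1 matches, and no match to the 4 motifs was found in the other two. The coordinates are chr7:30183921-30184220 on the plus strand for Cox7a1, chr9:79759804-79760103 on the minus strand for Cox7a2, chr5:115348909-115349208 on the minus strand for Cox6a1 and chr13:74350191-74350490 on the minus strand for Sdha, each printed 5′ to 3′ along the gene's strand.
Cox7a1: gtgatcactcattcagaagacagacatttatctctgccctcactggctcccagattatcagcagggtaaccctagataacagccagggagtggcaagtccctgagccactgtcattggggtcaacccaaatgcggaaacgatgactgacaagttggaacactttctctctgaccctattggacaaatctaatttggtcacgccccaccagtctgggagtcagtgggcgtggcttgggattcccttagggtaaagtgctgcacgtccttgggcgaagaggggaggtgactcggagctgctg
Cox7a2: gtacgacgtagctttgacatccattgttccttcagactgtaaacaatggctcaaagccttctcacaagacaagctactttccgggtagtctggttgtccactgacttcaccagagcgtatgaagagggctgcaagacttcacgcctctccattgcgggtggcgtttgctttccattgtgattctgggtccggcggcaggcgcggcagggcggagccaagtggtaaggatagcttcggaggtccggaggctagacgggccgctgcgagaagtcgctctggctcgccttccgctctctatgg
Cox6a1: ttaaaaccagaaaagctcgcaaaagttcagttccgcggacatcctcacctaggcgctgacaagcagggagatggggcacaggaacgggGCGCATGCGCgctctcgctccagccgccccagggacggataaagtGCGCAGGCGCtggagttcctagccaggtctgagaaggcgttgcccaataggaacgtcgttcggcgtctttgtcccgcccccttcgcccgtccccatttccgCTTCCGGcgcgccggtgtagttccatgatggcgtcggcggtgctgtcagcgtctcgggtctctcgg
Sdha: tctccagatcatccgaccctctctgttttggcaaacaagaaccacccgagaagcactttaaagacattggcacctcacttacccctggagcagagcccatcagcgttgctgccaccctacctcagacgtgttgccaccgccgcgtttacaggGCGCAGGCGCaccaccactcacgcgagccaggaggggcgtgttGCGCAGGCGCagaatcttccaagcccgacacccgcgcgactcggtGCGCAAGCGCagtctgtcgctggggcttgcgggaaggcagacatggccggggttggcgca

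In the corpus, EpCAM-low cells held the highest level of nearly every subunit transcript on the size-factor scale. Of the 92 members tested against Lgr5-negative cells, 85 were higher and 0 lower at an adjusted p under 0.05 (limma, Benjamini-Hochberg over all genes), while 12.9% of all 14847 genes were higher and 18.0% lower. Of the 92, 4 reached the count filter only through libraries of 1 group (Cox7b2, Ndufab1.ps and Atp5l2.ps in EpCAM-low cells, Ndufa4l2 in EpCAM-high cells), so a test of these 4 could hardly fail to favour that group, and it is not used as support. Cox7b2 and Ndufab1.ps are among the 85. The members' median difference was 1.73 on the log2 scale, against -0.19 for all genes. All 36 complex I subunits, all 4 of complex II, 7 of 8 of complex III, cytochrome c, 13 of 15 tested of complex IV and 14 of 15 of ATP synthase were higher. The 7 of complex III include Uqcrh, which edgeR did not call. Of the assembly factors, 6 of 8 were higher, with a lower median difference (1.02) than that of any of the 5 complexes. Fewer cells of a type and less RNA per cell cannot be told apart in such bulk libraries. The EpCAM-low sorts held 3455, 22800 and 7530 cells and the EpCAM-high sorts 3193, 5230 and 2580. The Lgr5-negative sorts held 54100, 142000 and 65830, more than any sort of the other groups, so cell number differed along with the sorted group. The part of cell number in the subunit differences was not tested.

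Complex I summed to 129994, 119878 and 123763 normalized counts in the Lgr5-negative libraries (sort days 1, 2 and 3) and to 441952, 277429 and 635493 in the EpCAM-low libraries. The groups did not overlap, and the EpCAM-low libraries differed among themselves more than the Lgr5-negative ones did. Ndufs1, the iron-sulfur subunit at the entry of the complex, was at 3418, 4071 and 4026 in Lgr5-negative and at 12089, 5927 and 9354 in EpCAM-low cells (difference 1.19 ± 0.25 log2, SE, adjusted p 0.00725 by limma), the smallest difference of the 36. Ndufb8, an accessory subunit of the membrane arm, was at 5191, 4391 and 4543 against 22196, 12971 and 30572 (2.14 ± 0.38, adjusted p 0.00337 by limma). Ndufb9, of the same arm, had the widest gap in complex I, from 4459, 4200 and 4196 to 23487, 14376 and 31977 (2.37 ± 0.38, adjusted p 0.0022 by limma). In each of these 3 genes every EpCAM-low library lay above every Lgr5-negative one. Ndufv1, which binds NADH, differed by 1.60 and Ndufa9 by 1.27 (adjusted p by limma 0.0101 and 0.00536).

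Complex II, which also belongs to the tricarboxylic acid cycle, had a median difference of 1.32. Its catalytic flavoprotein Sdha was at 12429, 11346 and 10718 in Lgr5-negative and 30362, 18246 and 31555 in EpCAM-low cells (1.18, adjusted p 0.00488 by limma), with no overlap. The iron-sulfur subunit Sdhb differed by 1.63, and the membrane anchors Sdhc and Sdhd by 1.45 and 1.07 (adjusted p by limma 0.0132, 0.0148 and 0.027).

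Complex III had a median difference of 2.23, and cytochrome c, the carrier between complexes III and IV, a difference of 2.50. The complex III median includes Uqcrh and Uqcrb, which varied too much to be read (next paragraph), so its rank among the complexes is not secure. The Rieske iron-sulfur protein Uqcrfs1 was at 8961, 7710 and 8107 in Lgr5-negative cells and at 51628, 26120 and 65025 in EpCAM-low cells (2.43 ± 0.46, adjusted p 0.00442 by limma). Cycs was at 1200, 1583 and 1821 against 10566, 5146 and 11649 (2.50 ± 0.34, adjusted p 0.0012 by limma). The EpCAM-low libraries were above all Lgr5-negative ones for both genes. The core proteins Uqcrc1 and Uqcrc2 differed less, by 1.37 and 1.41 (adjusted p by limma 0.0162 and 0.00483), and the small subunit Uqcrq differed by 2.32 ± 0.47 (adjusted p 0.00579 by limma).

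Uqcrh, the hinge protein that binds cytochrome c1, and Uqcrb varied too much between replicates to be read. Uqcrh was at 119, 346 and 5186 in Lgr5-negative and 10325, 11944 and 2961 in EpCAM-low cells, so the groups overlapped. Its difference of 3.57 passed limma (adjusted p 0.0383) but not edgeR (0.17), and it passed in 2 of 9 fits that each left out a library. Uqcrb, at 128, 454 and 7251 against 3283, 10526 and 1805, missed the threshold (2.40 ± 1.22, adjusted p 0.16 by limma). Uqcrh has 2 annotated pseudogenes in these tables, with at most 10 and 17 reads in a library. Whether reads of Uqcrh, Uqcrb, Atp5l, Ndufb4, Ndufs5 and Atp5g2 were split between near-identical copies was not tested. The counts of these genes are treated as uncertain. The same holds for the 3 pseudogenes counted among the 85: Ndufab1.ps (a difference of 2.82), Atp5c1.ps (2.76, 0.044, edgeR 0.129) and Atp5k.ps2 (2.56, 0.0254).

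Complex IV summed to 94450, 88594 and 95974 in Lgr5-negative cells and to 358873, 238124 and 624569 in EpCAM-low cells. Cox4i1, the general form of the regulatory subunit, was at 16256, 15564 and 15474 against 72499, 45123 and 121128 (2.22 ± 0.43, adjusted p 0.00499 by limma), with no overlap. Among the other broadly expressed subunits, Cox5a, Cox5b, Cox6a1, Cox6b1, Cox7b and Cox8a differed by 1.91, 1.87, 1.96, 1.90, 2.29 and 1.57, and all passed. Ndufa4, at 7297, 8344 and 9206 against 33763, 23840 and 53304, differed by 2.09 (adjusted p 0.0018 by limma). Cox7a2l, a factor that joins complexes III and IV in supercomplexes, was at 1576, 1187 and 1191 against 2106, 1443 and 2829, and its difference of 0.65 did not pass (adjusted p 0.0749).

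ATP synthase summed to 222119, 209834 and 210542 in Lgr5-negative and 623618, 406136 and 833733 in EpCAM-low cells. The catalytic core genes Atp5a1 and Atp5b had smaller differences (1.14 and 1.28, adjusted p by limma 0.0159 and 0.0116) than the stalk subunit Atp5o (1.72, 0.00465). The genes Atp5g1, Atp5g2 and Atp5g3 encode the same mature c subunit of the rotor, and their differences were unequal. Atp5g1 was at 7479, 6489 and 6328 against 30568, 16680 and 41880 (2.04, adjusted p 0.00795 by limma) and Atp5g3 differed by 1.86 (0.00817). Atp5g2, at 696, 624 and 676 against 885, 914 and 1736, did not pass (0.75, adjusted p 0.0729, and 0.0326 with the sort day as a block). It gave 2.62 to 2.91% of the counts of the 3 c subunit genes in Lgr5-negative cells and 1.08 to 1.49% in EpCAM-low cells.

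**Figure D2:**
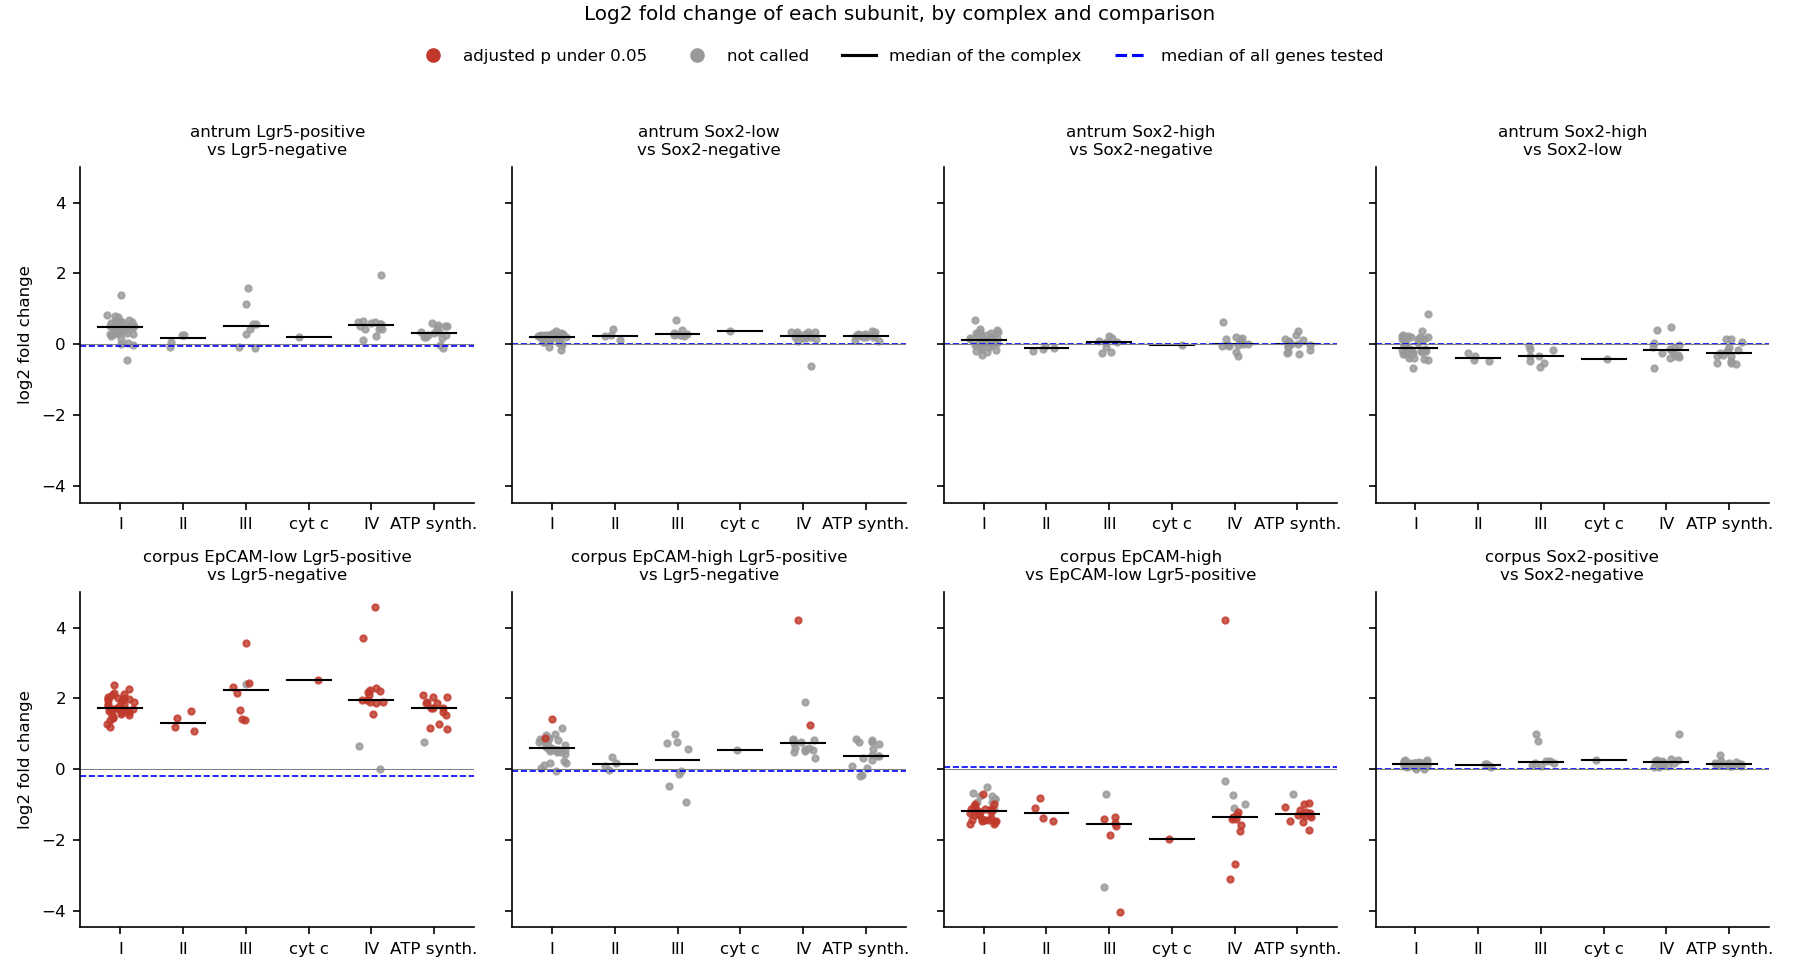
Log2 fold change of every tested subunit (points) by respiratory complex in the 8 comparisons within a tissue; red points have an adjusted p under 0.05 (limma), black bars are the median of the complex, and the dashed blue line is the median of all genes. In the panel of EpCAM-low against Lgr5-negative cells 75 of 79 subunits are red and above 0, and the antrum panels hold no red point.

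The make-up of the system also differed within the sum of all subunits. ATP synthase gave 40.3 ± 0.94% (SD, n = 3) of that sum in Lgr5-negative cells, 34.8 ± 1.49% in EpCAM-low cells and 34.5 ± 1.66% in EpCAM-high cells. Complex IV gave 17.5 ± 0.38%, 22.05 ± 2.40% and 22.2 ± 1.80% in the same order, and complex II 7.97 ± 0.40%, 6.16 ± 0.83% and 6.68 ± 0.98%. These shares do not depend on how the libraries were scaled. They also moved between libraries of the same group in the antrum. In antrum Lgr5-positive cells ATP synthase gave 36.9 ± 8.37% and complex IV 19.4 ± 6.47%. There, ATP synthase and complex IV summed to 403625 and 398245 on sort day 1, and to 182302 and 68775 on day 2. Whether the same source of variation entered the corpus shares was not tested.

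Both the size and the direction of the difference depended on the scale. In EpCAM-low libraries 20 genes took 77.2 to 88.9% of all reads, against 42.2 to 49.1% in Lgr5-negative and 34.1 to 43.3% in EpCAM-high cells. Chief cell markers alone took 40.9 to 48.9%, 24.7 to 29.6% and 16.9 to 23.2%. As a share of all reads, the subunits together made up 1.46, 0.603 and 2.53% in EpCAM-low cells and 1.73, 1.44 and 1.69% in Lgr5-negative cells, so the groups overlapped. Outside the 20 most abundant genes of each library, they made up 4.85 to 8.52% against 2.29 to 2.56%, with no overlap. Fitted on library totals, the median of all genes moved to -1.49 and that of the members to -0.22, and 1 member was higher (Cox7a1) and 7 lower: Atp5g2, Cox7a2l and the assembly factors Ndufaf1, Ndufaf3, Ndufaf5, Ndufaf7 and Ndufaf8. On this scale 0.855% of all genes were higher and 79.0% lower. Relative to the median of all genes the members were 1.27 higher on library totals and 1.92 higher with size factors. Ribosomal protein genes were taken as all 291 symbols of Rpl or Rps and a digit, a rule that also admits pseudogenes and Rps6k kinase genes. They took 0.139 to 0.311% of reads in EpCAM-low and 0.629 to 0.818% in Lgr5-negative cells.

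**Figure D3:**
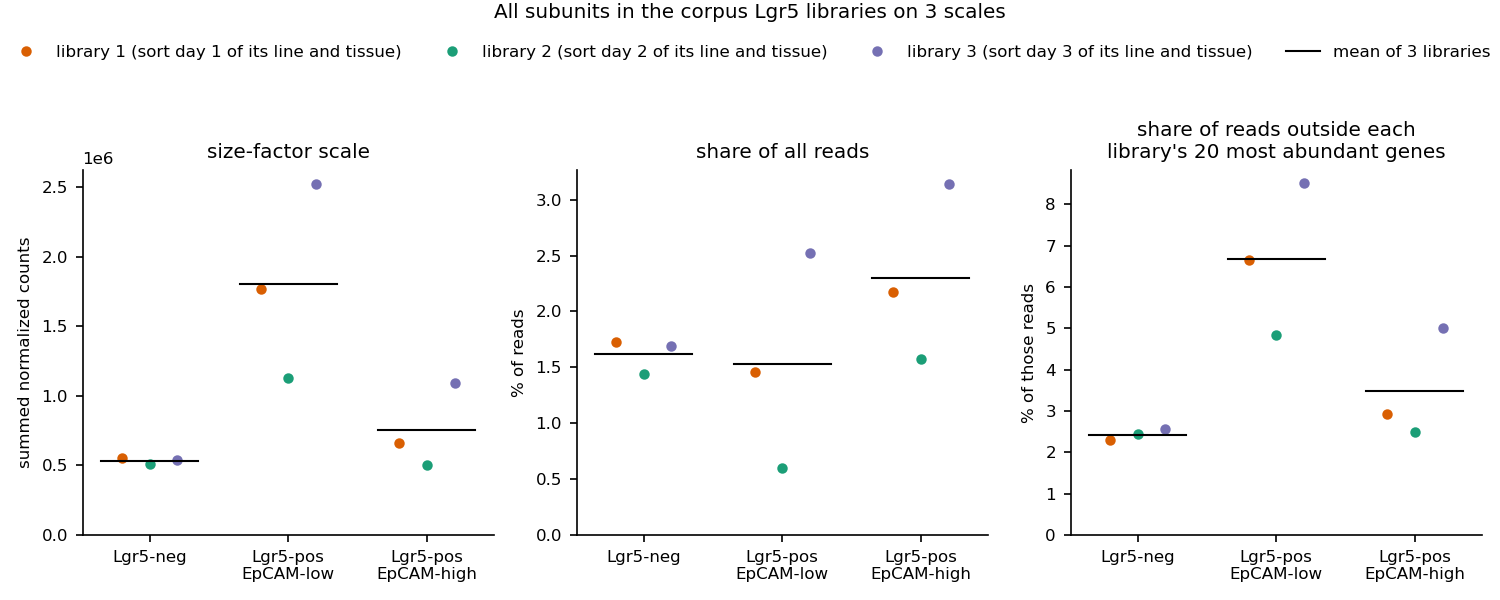
All subunits summed in the 9 corpus libraries of the Lgr5 line on 3 scales: normalized counts, percent of all reads, and percent of reads outside each library's 20 most abundant genes; points are libraries. EpCAM-low libraries are above Lgr5-negative ones as normalized counts and outside the 20 most abundant genes, and overlap with them as percent of all reads (0.603 to 2.53 against 1.44 to 1.73).

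Among paralogues of complex IV the balance of Cox7a1 and Cox7a2 differed between groups. Cox7a1, the form known from heart and skeletal muscle, was at 153, 220 and 193 in Lgr5-negative cells, at 4288, 2462 and 8404 in EpCAM-low cells and at 673, 211 and 2357 in EpCAM-high cells. EpCAM-low cells lay above all Lgr5-negative libraries (4.57 ± 0.75, adjusted p 0.00246 by limma), and the call held in 9 of 9 fits that each left out a library. Its widespread partner Cox7a2, at 3383, 4932 and 6287 against 21548, 16222 and 28223, differed by 2.18 ± 0.27 (adjusted p 0.00075 by limma). Cox7a1 therefore made up 16.6, 13.2 and 22.9% of the Cox7a1 and Cox7a2 counts in EpCAM-low cells and 4.32, 4.27 and 2.98% in Lgr5-negative cells, without overlap. In EpCAM-high cells the share was 8.86, 2.19 and 22.6%, spread across both other groups. It ran from 8.58 to 12.4% in the corpus Sox2 sorts and from 0.629 to 3.80% in the antrum. Of 9 smooth and striated muscle markers 1 was past the count filter between these groups (difference 3.25), and 0 were called.

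Other tissue-restricted forms were near the limit of detection. Cox7b2, a form known from testis, was at 0, 2.34 and 0 in Lgr5-negative and at 23.3, 14.0 and 18.7 in EpCAM-low cells, which rests on 12, 4 and 6 reads. It is given as a description only, since these libraries alone brought it past the count filter. Cox4i2, the form known from lung, had 0 to 18 reads in a library, and Cox6b2, another testis form, 0 to 108. Cox6b2 was at 22.9, 9.36 and 7.94 in Lgr5-negative, 15.6, 0 and 9.37 in EpCAM-low and 5.36, 2.29 and 0 in EpCAM-high cells, with overlap throughout.

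**Figure D4:**
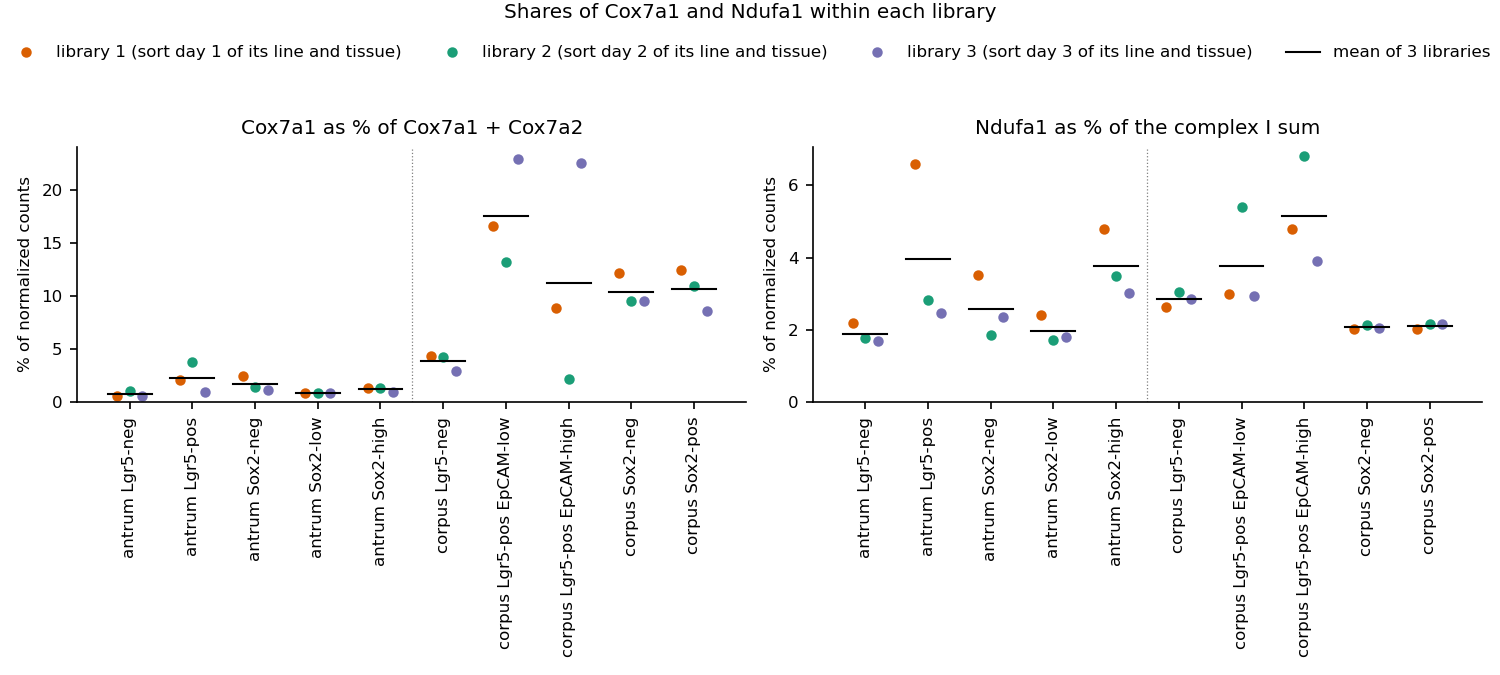
Left, Cox7a1 as percent of the Cox7a1 and Cox7a2 counts; right, Ndufa1 as percent of the summed complex I counts, in the 10 groups; points are libraries. The Cox7a1 share is 13.2 to 22.9% in EpCAM-low cells and at most 3.80% in the antrum, and the Ndufa1 share is highest in 1 EpCAM-high library (6.81%).

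Parietal and mitochondrial genes outside the set stood beside these values in EpCAM-low cells. Of 13 parietal markers tested, 11 were higher and 0 lower than in Lgr5-negative cells (median 3.30), and Atp4a was at 588187 or more in each EpCAM-low library against 51325, 42650 and 37681 (4.51, adjusted p 0.00291 by limma). Tuft markers (0 higher, 7 lower of 10) and enteroendocrine markers (0 higher, 9 lower of 12) were mostly lower. Of the chief markers 4 of 7 were higher and 1 lower; the parietal and chief lists share Gif, a chief cell product in mouse. Whether cell make-up accounts for the subunit differences was not tested.

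Of the 17 tricarboxylic acid cycle genes 15 were higher and 0 lower (median 1.13), among them Idh3a of isocitrate dehydrogenase (1.73, adjusted p 0.00423 by limma), while citrate synthase Cs differed by 0.81 (0.0481). The ADP/ATP carriers Slc25a4 and Slc25a5 differed by 2.33 and 1.92 (adjusted p by limma 0.01 and 0.00561). Antioxidant enzymes were higher in 8 of 9, fatty acid oxidation genes in 8 of 15, assembly factors outside the rule in 13 of 30, mitochondrial import and cristae genes in 6 of 19 and carriers in 5 of 11, with none lower in any of these lists. Glycolysis genes were mixed, with 6 higher and 4 lower of 19. Among 16 regulators of mitochondrial biogenesis 2 were higher and 1 lower. Esrrg, an estrogen-related receptor that is also on the parietal list, was at 22622, 9685 and 19906 against 3476, 2820 and 2790 (2.44, adjusted p 0.011 by limma). Tfb1m, which modifies mitochondrial ribosomal RNA, differed by 0.82 (0.027) and Nrf1 by -1.11 (0.0288). Ppargc1a, a coactivator of both receptors and Nrf1, was at 729, 795 and 1090 against 191, 238 and 290, without overlap, and missed the threshold (1.86, adjusted p 0.057, and 0.0269 with the sort day as a block), and the mitochondrial DNA factor Tfam differed by 0.20 (0.387).

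EpCAM-high cells, the other Lgr5-positive sort of the corpus, held less subunit RNA than EpCAM-low cells on the size-factor scale. Of 92 members 68 were lower and 1 higher, with a median of -1.25 against 0.07 for all genes, of which 14.3% were lower and 17.5% higher. This comparison shares the EpCAM-low libraries with the one above. Parietal markers stood lower beside the members, with 11 of 13 lower and 0 higher (median -2.67), as did 4 of 7 chief markers (median -0.63), while 10 of 10 tuft markers were higher (median 5.85). Their part in the subunit differences was not tested. The 1 higher member was Ndufa4l2, described below. By complex, 27 of 36 complex I subunits, all 4 of complex II, 6 of 8 of complex III, cytochrome c, 9 of 15 of complex IV and 14 of 15 of ATP synthase were lower, and 6 of 8 assembly factors.

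Cycs fell by 1.96 ± 0.34 from EpCAM-low to EpCAM-high cells, where it was at 2258, 1543 and 3070 (adjusted p 0.0025 by limma). Uqcrfs1 was at 12273, 6319 and 23728 in EpCAM-high cells (-1.86, adjusted p 0.0133) and Atp5b at 74347, 50286 and 103177 (-1.25, 0.0119), both below every EpCAM-low library. Cox7b2 (-3.10) and Ndufab1.ps (-2.05), which reached the count filter only through EpCAM-low cells, are given as a description. The other large differences were those of Uqcrh (-4.04), Cox7a1 (-2.68, adjusted p 0.023, edgeR 0.0504), Cox7b (-1.75), Atp5g1 (-1.73), Uqcrq (-1.60) and Ndufa4 (-1.59). Ndufs1, Sdha and Cox4i1 differed by -1.17, -0.82 and -1.40, and each passed the test.

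The count depended on single libraries. It was 27 without EpCAM-high replicate 1, where 25.8% of all genes were called, and 19 without EpCAM-high replicate 2, where 20.6% were. It was 36 without EpCAM-low replicate 1 and 25 without EpCAM-low replicate 3, with 28.5% and 28.3% of all genes called. With all libraries the members' count was 69 and the share of all genes 31.8%. EpCAM-high replicate 3 held the most subunit RNA of its group (complex IV at 258420, against 132976 and 114719) and the most Atp4a (382528, against 142973 and 28383). On library totals, where the median of all genes was 1.43, the members' median was 0.75 and 26 were higher and 0 lower, while 74.9% of all genes were higher. Relative to the median of all genes the members were then 0.69 lower, and 1.31 lower with size factors. The limit on comparing these scales given above holds here too.

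Against Lgr5-negative cells, EpCAM-high cells differed in few members. Of 92 members 6 were higher and 0 lower, with 10.7% of all genes higher and 10.5% lower, so the share called was below that of all genes. The members' median was 0.57 against -0.06 for all genes, and 79 of the 92 lay above 0. With the sort day as a block 22 were higher, with 11.7% of all genes. Single libraries moved the count of 6 too. It was 3 and 2 without EpCAM-high replicates 2 and 3, where 12.9% and 15.6% of all genes were called in either direction. It was 3 without any one of the Lgr5-negative libraries, with 11.1%, 9.48% and 10.3% of all genes. It was 11 and 13 without EpCAM-low replicates 2 and 3, which enter the shared spread, with 24.1% and 23.3%. These groups share libraries with both comparisons above.

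Ndufa1, a small subunit of the complex I membrane arm, was among the 6. It was at 3418, 3651 and 3543 in Lgr5-negative cells, at 8061, 9323 and 11402 in EpCAM-high cells and at 13180, 14950 and 18704 in EpCAM-low cells. The 3 groups did not overlap, and EpCAM-high cells lay between the others. The difference of EpCAM-high from Lgr5-negative cells was 1.43 ± 0.18 (adjusted p 0.00115 by limma, called in 9 of 9 fits that each left out a library), and that from EpCAM-low cells was -0.70 (0.0162). Ndufa1 made up 4.78, 6.81 and 3.90% of the complex I counts in EpCAM-high cells and 2.63, 3.05 and 2.86% in Lgr5-negative cells. In EpCAM-low cells the share was 2.98, 5.39 and 2.94%, which overlapped with EpCAM-high cells. Antrum Lgr5-positive replicate 1, of sort day 1, reached 6.58%.

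Ndufa4l2, a hypoxia-induced paralogue of Ndufa4 and another of the 6, was at 16.1, 14.9 and 23.1 in EpCAM-high cells, or 15, 13 and 19 reads, and at 0 in all EpCAM-low and Lgr5-negative libraries. Against a floor of 3 reads per library it was at least 4.70-fold higher than in Lgr5-negative and at least 2.10-fold higher than in EpCAM-low cells. It reached the count filter only through the EpCAM-high libraries, and no longer did when 1 of them was left out, so its calls are a description and not a test. Outside EpCAM-high cells it had 0 to 12 reads in a library. The 3 corpus Sox2-positive libraries had 2, 2 and 3 reads and 1 antrum Sox2-negative library had 12.

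The other 4 were the assembly factors Ndufaf2 and Ndufaf3 and the subunits Cox6c and Ndufa7. Ndufaf2 was at 330, 288 and 293 in Lgr5-negative and 754, 779 and 672 in EpCAM-high cells (1.27 ± 0.24, adjusted p 0.00567 by limma), and was called in 9 of 9 fits that each left out a library. Ndufaf3 (1.06, adjusted p 0.0269), Cox6c of complex IV (1.23, 0.0387) and Ndufa7 of complex I (0.87, 0.0421) were called in 4, 3 and 3 of these 9 fits. Atp5b was at 74347, 50286 and 103177 in EpCAM-high against 74777, 70555 and 69335 in Lgr5-negative cells (0.03, adjusted p 0.963 by limma). By complex, the median differences were 0.60 for complex I, 0.13 for complex II and 0.26 for complex III. They were 0.74 for complex IV and 0.37 for ATP synthase, with cytochrome c at 0.54.

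Tuft markers were higher in 10 of 10 in EpCAM-high than in Lgr5-negative cells. Their sums were 205101 to 369540, against 16855 to 31373 in Lgr5-negative and 1936 to 13357 in EpCAM-low cells. Other lists also stood apart in EpCAM-high cells, at lower sums. Endothelial markers summed to 2027 to 3588, against 214 to 315 in Lgr5-negative and 361 to 465 in EpCAM-low cells. Immune markers summed to 1719 to 4483, against 525 to 704 and 56.2 to 266 in the same order. The part of these markers in the levels of Ndufa1, Ndufaf2 and Ndufa4l2 was not tested. Enteroendocrine markers were lower in 8 of 12. No gene of the tricarboxylic acid cycle was called against Lgr5-negative cells, and 16 were lower than in EpCAM-low cells.

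The authors' deposited table named for EpCAM-high against EpCAM-low cells did not follow that contrast. Across genes, its log2 fold changes had a correlation of 0.908 with the EpCAM-low minus Lgr5-negative differences computed here (median absolute difference 0.179) and of -0.564 with EpCAM-high minus EpCAM-low (median absolute difference 1.37, or 0.625 with the sign turned). Of the 91 members with an adjusted p in the authors' deposited table, 66 were called with a positive sign and 0 with a negative one, against 17.9% of all 16355 genes called in either direction, with a median of 1.72 over members. The authors' deposited table gives Cox7a1 at 5.005 (adjusted p 5.76e-05), Cycs at 2.43 (0.000164), Uqcrfs1 at 2.41 (1.92e-06) and Ndufa1 at 2.14 (0.03). The authors' deposited table for antrum Lgr5 calls 0 of 90 members and 0.918% of all 16554 genes, with signs opposite to positive minus negative, and that for Sox2-high against Sox2-low calls 0 of 91 members and 4.74% of 17515 genes.

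In the antrum, sort day 1 of each line, and not the sorted marker, went with most of the variation in subunit RNA. In the Lgr5 line the subunits stood 1.59 higher on day 1 than on days 2 and 3 (median log2, 74 of 78 above 0), and in the Sox2 line 1.65 higher (75 of 78). The median of all genes was -0.004 and -0.013. Day 1, a different date in each line, was the highest of the 3 days in all 5 antrum groups for 70 of the 81 subunits. The sort day took a median 85.1% of the sum of squares of a subunit in the antrum Lgr5 sorts and the sorted group 7.05%, against 67.3 and 13.2% over all genes. In the antrum Sox2 sorts it took 91.8% and the group 2.67% (all genes 44.3 and 27.3%).

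Complex IV summed to 398245, 68775 and 96433 in antrum Lgr5-positive cells on days 1, 2 and 3 and to 166951, 64694 and 77070 in Lgr5-negative cells. The Sox2-high sums were 270554, 53429 and 56901. Cox6a1 was at 60981, 11359 and 14301 in Lgr5-positive cells, 22844, 9685 and 11400 in Lgr5-negative cells and 42717, 8411 and 8937 in Sox2-high cells. Day 1 stood highest in each of these groups. Some catalytic core genes did not follow. Ndufs1 was at 1979, 4453 and 4117 in Lgr5-positive cells, Sdha at 7663, 15341 and 15261, and Atp5a1 at 30156, 29782 and 30506 in Sox2-high cells. Ndufs1, Sdha and Atp5a1, together with the barely detected Cox7b2, had day 1 as the highest day in no antrum group.

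Gene length moved with the day 1 difference over all genes. With all genes split by summed exon length into 4 bins of equal size, the median day 1 difference of the shortest bin was 0.74 in the Lgr5 line and 0.81 in the Sox2 line, and that of the longest bin -0.37 and -0.43. Of the 78 subunits, 56 and 55 were in the shortest bin, where their medians were 1.63 and 1.72, above those of the whole bin. Within the subunits the difference did not fall steadily with summed exon length. The medians of the next bins were 1.12 and 0.97 (14 and 15 subunits) and then 1.63 and 1.63 (6 subunits in each line). The longest bin held 2 subunits. Summed exons merge all annotated transcripts, so a gene's length here can exceed that of its main transcript. Atp5l, with 6443 bases of summed exons, stood 1.79 and 1.81 higher on day 1, and Cox6c, with 3567 bases, 1.96 in both lines, while Atp5a1, with 3135 bases, did not (-0.21 and -0.11). Genes of the Rpl and Rps symbol rule given above were 1.51 (116 of 123 above 0) and 1.75 (111 of 119) higher. The part of RNA quality or library preparation in this was not tested.

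**Figure D5:**
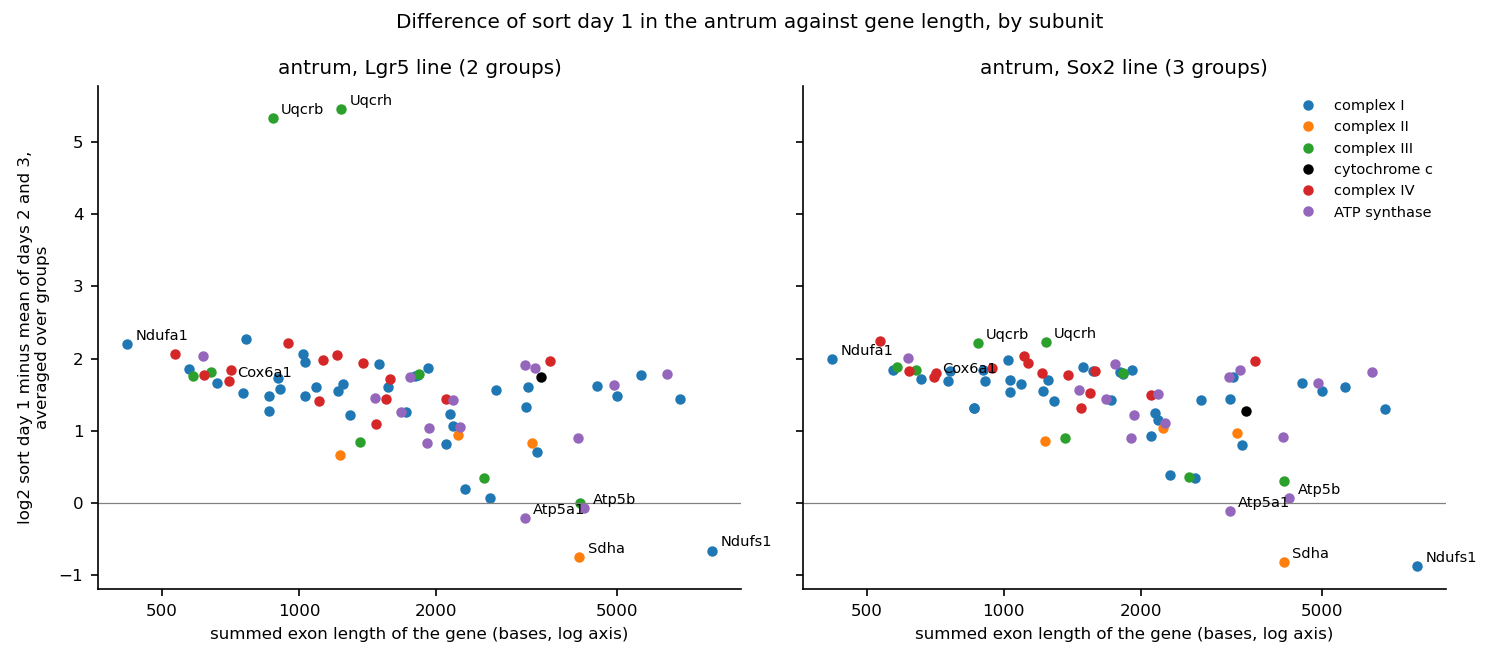
Log2 difference of sort day 1 from the mean of days 2 and 3 for each subunit against its summed exon length (log scale), averaged over the 2 antrum groups of the Lgr5 line and the 3 of the Sox2 line, coloured by complex. The subunits in the shortest bin lie high (medians 1.63 and 1.72). Those with longer summed exons are mixed, with Atp5l (6443 bases) at 1.79 and 1.81 and Atp5a1 (3135 bases) at -0.21 and -0.11. Summed exons merge all annotated transcripts and can exceed the main transcript.

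No member was called between antrum Lgr5-positive and Lgr5-negative cells. Of 88 members 0 were called, as were 0.0% of all 14047 genes, 0 had an unadjusted p under 0.05 by limma, and edgeR called 0 members and 0.0% of all genes. The members' median was 0.40 against -0.04 for all genes, and 0.13 without sort day 1, a setting chosen after seeing the data. It was 0.66 by edgeR, and on library totals it turned to -0.023, with 42 of 88 above 0, where the median of all genes was -0.39. With the sort day as a block 0 members were called, 14 had an unadjusted p under 0.05, and 3.18% of all genes were called. Ndufa1 was at 27598, 2844 and 3346 in Lgr5-positive and 4326, 1748 and 1933 in Lgr5-negative cells, so each sort day had the positive library higher while the groups overlapped. Uqcrb, at 39058, 488 and 292 against 3727, 303 and 181, and Uqcrh, at 25625, 424 and 427 against 7705, 299 and 188, were high on day 1 in both groups, and had the widest range of group means of 87 members in the antrum (2.49 and 2.75). Cox7a1 followed at 1.97, then Ndufa1 at 1.39 and Cox6b2 at 1.19. The narrowest ranges were those of Atp5g2 (0.26), Ndufaf1 (0.29) and Ndufaf2 (0.38). In the corpus the widest were Cox7a1 at 4.57, Uqcrh at 4.04, Uqcrb at 3.33, Ndufab1.ps at 3.09 and Cox6b2 at 3.05 and the narrowest Ndufaf7 (0.76), Cox7a2l (0.79) and Atp5g2 (0.96).

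Antrum Sox2-high and Sox2-low cells differed in members only once the sort day was taken into account. Without it 0 of 87 were called by limma and 0 by edgeR, 1 had an unadjusted p under 0.05, and limma called 7.9% and edgeR 6.64% of all 15064 genes. The median was -0.19 against 0.00 for all genes. With the sort day as a block 12 were called, 3 higher and 9 lower, against 17.3% and 13.1% of all genes, so the share of members called was below that of all genes. The 9 lower ones came from all 5 complexes and the assembly factors: Ndufs1 and Ndufv1 (-0.67 and -0.43), Sdhc (-0.45), Uqcrc1 and Uqcrc2 (-0.53 and -0.46), Cox5a (-0.67), Atp5a1 and Atp5b (-0.55 and -0.53) and Ndufaf5 (-0.57). The 3 higher were Ndufa1 (0.86, adjusted p 0.00773 by limma with the block), Atp5s (0.76) and Ndufaf3 (0.62). Without sort day 1, 24 were called, 3 higher and 21 lower, with a median of -0.39, and 17.6% of all genes were higher and 13.9% lower. The Sox2-high sorts held 3268, 2090 and 1630 cells and the Sox2-low sorts 80000, 66900 and 61910. The part of cell number was not tested.

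Atp5a1 moved little with the sort day within Sox2-high and within Sox2-low cells. It was at 30156, 29782 and 30506 in Sox2-high cells, 44671, 45066 and 42487 in Sox2-low cells and 30601, 45687 and 34150 in Sox2-negative cells. Sox2-high cells were below every Sox2-low library, and Sox2-negative cells ranged across the gap. Atp5b was at 50731, 48747 and 48611 in Sox2-high and 80912, 69802 and 63734 in Sox2-low cells, again without overlap. Ndufa1 had the other direction, at 14713, 2951 and 2596 in Sox2-high cells, 5812, 1887 and 1727 in Sox2-low cells and 7161, 1882 and 2006 in Sox2-negative cells, with Sox2-high the highest on each day. Beside these values, enteroendocrine markers were higher in 8 of 12 and lower in 1 in Sox2-high cells (median 2.56), and tuft markers lower in 6 of 10 (-3.58). Glia and neuron markers were higher in 3 of 5, endothelial markers higher in 2 and lower in 1 of 4, the 1 fibroblast marker tested was higher (7.43), and pit markers were lower in 2 of 7. Their part in the subunit differences was not tested.

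Against Sox2-negative cells the antrum Sox2 sorts showed less. For Sox2-high cells 0 of 87 members were called, with 2.15% of all genes, 0 by edgeR (1.39% of all genes), and 0 had an unadjusted p under 0.05. The median was 0.06 against 0.02, with no steady direction: it was 0.29 by edgeR, -0.024 on library totals and -0.20 without sort day 1, where 18 of 87 lay above 0. With the sort day as a block, 9.71% of all genes and 1 member were called, Ndufa1 (0.69, adjusted p 0.0391 by limma), and without sort day 1 also 1, with 10.5% of all genes. For Sox2-low cells 0 members were called by limma, with or without the block, and 0 by edgeR, among 0.0% of all genes in each. Their median was 0.23 against 0.01, 80 members lay above 0, and 0 had an unadjusted p under 0.05 by limma.

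Corpus Sox2-positive and Sox2-negative cells differed less in subunit RNA than the sort days did. Of 87 members 0 were called by limma and 0 by edgeR, 1 had an unadjusted p under 0.05, and limma called 9.73% and edgeR 9.57% of all 14034 genes. The median was 0.15 against 0.01 for all genes, 85 members lay above 0, and the complex medians ran from 0.11 (complex II) to 0.21 (complex III), with cytochrome c at 0.24. Cox6a1 was at 25024, 16104 and 16060 in Sox2-negative and 25158, 17192 and 17230 in Sox2-positive cells, and Atp5b at 96571, 77843 and 81438 against 100680, 83139 and 87771. On each sort day the positive library was slightly higher, while day 1 stood above the others in both groups. That day was higher for 77 of 78 subunits (median 0.34), and the sort day took a median 85.8% of a subunit's sum of squares against 11.1% for the group.

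With the sort day as a block 3 members were higher in corpus Sox2-positive cells: Ndufs1 (0.24, adjusted p 0.042 by limma), Uqcrq (0.24, 0.0305) and Cox7b (0.29, 0.0409), while 4.95% of all genes were higher and 11.5% lower. Ndufs1 was at 5382, 4658 and 5729 in Sox2-negative and at 6288, 5998 and 6335 in Sox2-positive cells, with no overlap. Cycs, at 2901, 1578 and 2462 against 2980, 2128 and 2957, overlapped. Tuft markers were higher in 9 of 10 in Sox2-positive cells, with sums of 32656 to 62157 against 15639 to 24363. Enteroendocrine markers were lower in 7 of 12 and higher in 1 (median -2.59), with sums of 68968 to 80893 against 493712 and more. Their part in the subunit values was not tested. On library totals the members' median was 0.074.

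The Lgr5 difference was compared between antrum and corpus over the 15 libraries of that line, on reads rescaled together. Against EpCAM-low cells, the members' median was -1.43 and that of all genes 0.15, so the antrum difference lay below the corpus one. On library totals the members' median turned to 0.15, with 69 of 90 above 0 and 0 called, where the median of all genes was 1.60. Only Uqcrc2 of 90 members passed (-1.54 ± 0.38, adjusted p 0.0387 by limma), with 0.741% of all genes lower. With the sort day as a block 55 members were lower, with 3.86% of all genes. Without antrum Lgr5-positive replicate 1, which is the day 1 library, 29 were called, with 5.87% of all genes. Uqcrc2 was called in 5 of 15 fits that each left out a library and not without the count filter, and on library totals its difference was 0.048 (adjusted p 0.945). Its day 1 difference in the antrum was 0.35 in the Lgr5 line and 0.36 in the Sox2 line, against 5.46 and 2.23 for Uqcrh.

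Against EpCAM-high cells limma called 1 of 90 members, with 2.18% of all genes lower, and edgeR called 0 members and 3.82% of all genes. The 1 member was Ndufa4l2, which reached the count filter only through the 15, 13 and 19 reads of the EpCAM-high libraries, so its call is no test of a difference between tissues. The members' median was -0.17 against 0.014 for all genes, -0.056 by edgeR and -0.60 on library totals, where that of all genes was -0.41. The Sox2 difference, antrum Sox2-low minus corpus Sox2-positive, gave 0 of 87 members, among 0.036% of all genes, with a median of 0.10; 0 members had an unadjusted p under 0.05 and edgeR called 0.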

How the data were processed

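Poly(A) RNA libraries (Clontech SMARTer v4 low input, per the labels' protocols) of 30 sorts were used. STAR, HTSeq, DESeq2, edgeR and build mm9 are listed in the submitters' processing notes. Which did what, in which version and with or without strand is not given in the sources used here, so antisense and overlapping genes cannot be told apart. The authors deposited a signal, size-factor normalized counts of genes, in separate tables for antrum and corpus. Per the file headers, 3 of the authors' deposited tables hold their own comparisons as log2 fold changes with an adjusted p-value, and a sort sheet gives days and cell numbers. Values were whole multiples of 1 read for at least 99.9949% of values per library (tolerance 0.01 read), which returned 18672634 to 62344916 reads a library. Reads from amplified cDNA are not independent molecules, so the floor of 3 reads covers counting error only. Of 26400 features, 433 without a name (0.029 to 0.482% of reads) and 25 with a date for a name (0.013 to 0.106%) were left out. Replicates differed beyond read sampling (chi-square per degree of freedom at least 34.2).

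Groups of a line and tissue were fitted together with limma 3.58.1 (R 4.3.3; trend, robust) on log2(normalized count + 1), over genes with at least 10 in at least 3 libraries, with Benjamini-Hochberg adjustment over all genes and a threshold of 0.05. Fold changes on this scale understate low genes. Differences between tissues used recovered reads with TMM factors (log2 CPM, prior count 1). edgeR 4.0.16 (quasi-likelihood) on recovered reads, a sort day block, library-total scaling, pseudocount 5, no filter and leaving out each library were alternatives. The scripts were tested on simulated data. The sort sheet gives the same day to the same number in 12 of 12 sets, so the numbers pair the libraries. Correlations of same-day deviations from group means ran from 0.126 to 0.673 in the antrum and from -0.0563 to 0.366 in the corpus. The sum of squares of each gene was split into group, sort day and rest.

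Members, lists and tests were chosen with earlier results of these data known. Named genes are the called members (at most 10 per direction, by size), fixed representatives of each complex, paralogous forms and, per table, the 5 widest and 3 narrowest ranges of group means. Exon lengths are merged exons of GENCODE M21. No coordinates of the authors' build are given. Promoters are from RefSeq on GRCm38.p6.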

Additional observations from a re-analysis of the deposited data

Results flagged for a closer look

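The Lgr5 difference of Uqcrc2 differed between antrum and corpus by a test of the difference itself: the antrum difference minus the corpus EpCAM-low difference was -1.54. This call held in 5 of 15 fits that each left out a library, was not made without the count filter, and on library totals the value was 0.048 (adjusted p 0.945). For Ndufa4l2 the fitted antrum difference minus the corpus EpCAM-high difference was -4.33. This gene reached the count filter only through the EpCAM-high libraries, with 15, 13 and 19 reads there, so its call was largely fixed by the filter and is a description only.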

How the results depend on the processing

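Low reads limit Ndufa4l2, Cox7b2, Cox4i2 and Cox6b2, and 3 libraries a group limit every call. The sort day as a block gave 12 called members for Sox2-high against Sox2-low, 1 for Sox2-high against Sox2-negative, 22 for EpCAM-high against Lgr5-negative, 3 for corpus Sox2 and 55 for the antrum minus EpCAM-low difference; other counts stayed within 1.5 times, and among named calls it lost Atp5c1.ps (adjusted p 0.054) and Ndufab1.ps (0.066, EpCAM-high against EpCAM-low). Without sort day 1, chosen after seeing the data, the 2 Sox2-high comparisons gave 24 and 1. Library totals gave 26 calls and a median of 0.75 for EpCAM-high against EpCAM-low, where Cycs (0.056), Uqcrfs1 (0.16), Cox7b (0.27), Atp5g1 (0.29), Uqcrq (0.42) and Ndufa4 (0.43) turned, 3 calls for EpCAM-high against Lgr5-negative, 8 and a median of -0.22 for EpCAM-low, a median of 0.074 for corpus Sox2, 0 calls and 0.15 for the antrum minus EpCAM-low difference (Uqcrc2 0.048) and 0.25 for the Sox2 tissue difference. It also gave medians of -0.023 for antrum Lgr5, -0.024 for Sox2-high against Sox2-negative and -0.60 for antrum minus EpCAM-high. On that scale the most abundant genes enter the total. edgeR gave 0 for antrum minus EpCAM-high, and no filter 0 for antrum minus EpCAM-low, where more genes were adjusted over. Leaving out each library, medians ran from -0.22 to 0.88 (antrum Lgr5), -0.77 to 0.25, -0.56 to 0.47 and -0.24 to 0.61 (Sox2-high against low, high against negative, low against negative; -0.24 without Sox2-low replicate 1 and -0.037 without Sox2-negative replicate 3), 0.24 to 0.81 (EpCAM-high against Lgr5-negative, 2 to 13 calls), -1.54 to -0.92 (EpCAM-high against EpCAM-low, 19 to 78 calls), 1.43 to 2.03 (EpCAM-low, 72 to 83 calls), 0.015 to 0.25 (corpus Sox2), and -0.80 to 0.28 (0 to 1 calls), -1.91 to -0.96 (0 to 29) and -0.37 to 0.44 (0) for the 3 tissue differences. The cause of these changes was not tested.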
